A study of Mus musculus with 2 samples.

Results

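Lymphatic endothelial cells were described among tdTomato-positive cells of the mouse embryo. They were taken from the raw counts of unique molecular identifiers (UMIs) as the cells with at least 3 UMIs of the endothelial genes Pecam1, Kdr and Cdh5 together and at least 3 UMIs of the lymphatic genes Mmrn1, Prox1 and Lyve1 together. Among 22086 cells with at least 1000 UMIs and at most 10% mitochondrial UMIs, out of 27766 barcodes, 864 met both conditions. Of these lymphatic cells, 211 came from the library labelled SRSF2f/f/Myf5-Cre/tdT and 653 from the library labelled SRSF2f/w/Myf5-Cre/tdT. The cells were thus chosen on measured values, and differences in the 6 genes of the rule, or between these cells and other endothelial cells, are descriptions without a test.

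The study traced the cells that had once expressed Myf5, a myogenic factor, in embryos with or without the splicing factor SRSF2. Both libraries came from embryonic day 14 embryos without head and viscera that carried Myf5-Cre and a Rosa26-LSL-tdTomato reporter, and both carried at least 1 floxed Srsf2 allele: the first group had both Srsf2 alleles floxed (SRSF2f/f), and the second, the control, had 1 floxed and 1 wild-type allele (SRSF2f/w). tdTomato marks every descendant of a cell in which Myf5-Cre was active, so a sorted cell need not express Myf5 itself. Each group was 1 library of 10x Genomics 3′ chemistry, the number of embryos behind it was not given, and no comparison between the groups therefore has a replicate check or a p-value. All intervals below are 95% intervals for counting error only.

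The labels of the libraries were in conflict. The run summary deposited with the library labelled SRSF2f/f was named WT, and that of the library labelled SRSF2f/w was named KO. Srsf2, the floxed gene (chr11:116849901-116853094 of GRCm38, minus strand), gave 211 CPM (its UMIs per 1000000 UMIs of the same cells) in the lymphatic cells of the library labelled SRSF2f/f (197 to 227) and 167 in those of the library labelled SRSF2f/w (161 to 174). Its level was therefore lower in the library labelled as the control, with a log2 ratio of -0.34 (-0.45 to -0.22) of labelled SRSF2f/w over labelled SRSF2f/f. The same ratio was -0.40 in endothelial cells without lymphatic UMIs and -0.53 in the other cells. Reads from the 3′ end can lie outside a deleted part, so this level does not settle which library is which. Mettl23 and Mfsd11 overlap Srsf2 on the opposite strand, and whether their reads enter its count was not tested. Cells with at least 3 UMIs of the muscle factors Pax7, Myf5, Myod1 and Myog together were 19.8% (19.1 to 20.5) of the cells in the library labelled SRSF2f/f and 1.30% (1.08 to 1.54) in the library labelled SRSF2f/w, so the share of cells with muscle markers too was lower in the library labelled as the control. The cell numbers ran with the titles, since the library labelled SRSF2f/f held more kept cells and the study kept more cells of its knockout than of its control. The shares of cell types ran against the titles. The study reported a smaller share of skeletal muscle cells and a larger share of endothelial cells in its knockout. Here the library labelled SRSF2f/f held the larger share of cells with muscle markers and the smaller share of endothelial cells. None of these measures was used to assign a group. Groups below carry the deposited titles, and every direction between the libraries changes sign if the titles are exchanged.

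Lymphatic endothelium lines the vessels that return tissue fluid to the blood. In the mouse embryo it arises largely from veins under the transcription factor Prox1, and it grows toward VEGF-C through the receptor VEGFR3, encoded by Flt4, with neuropilin-2 as a co-receptor. Lymphatic endothelial cells display the hyaluronan receptor Lyve1 and secrete the chemokine CCL21, which draws dendritic cells and lymphocytes into the vessel through CCR7. Part of the lymphatic endothelium has been traced to paraxial mesoderm, the tissue that also forms trunk muscle.

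The lymphatic share of the sorted cells differed between the libraries. Lymphatic cells were 1.74% (1.51 to 1.99) of the 12144 cells of the library labelled SRSF2f/f and 6.57% (6.09 to 7.07) of the 9942 cells of the library labelled SRSF2f/w, a 3.78-fold higher share with a log2 ratio of 1.92 (1.70 to 2.14). Endothelial cells as a whole were 3.91% and 11.7% of the cells, and endothelial cells with 0 lymphatic UMIs 1.60% and 3.21%. Outside cells with muscle markers, the lymphatic share was 2.06% and 6.60%. Within the endothelial cells the gap was narrower: 211 of 475 (44.4%, 39.9 to 49.0) were lymphatic in the library labelled SRSF2f/f and 653 of 1162 (56.2%, 53.3 to 59.1) in the library labelled SRSF2f/w, a log2 ratio of 0.34 (0.18 to 0.50). The rule is a limit in UMIs, so the depth of the cells can set this share too. With cells thinned to 2000 UMIs before the rule, 28 and 102 cells met it. They were 17.6% and 22.7% of the cells that were then endothelial, a log2 ratio of 0.37 (-0.18 to 0.91) whose interval spans 0. The tdTomato gate and the number of other cells that passed it can also set the shares in this paragraph, and their part was not tested.

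The lymphatic cells lay between other groups of endothelial cells in sequencing depth. Their median was 14300 UMIs and 3591 genes in the library labelled SRSF2f/f, and 17470 UMIs and 3975 genes in the library labelled SRSF2f/w. Endothelial cells with lymphatic UMIs below the limit of the rule had higher medians, 19650 and 22340 UMIs. Those without lymphatic UMIs had 11265 and 13030, and the other, non-endothelial cells 10901 and 9339. The rule is a limit in UMIs and can favour deep cells, and its part in these medians was not tested. Over all barcodes the libraries held 156093779 and 128116615 UMIs. The libraries shared 74 barcodes, no barcode was a lymphatic cell in both, and 2 lymphatic cells had a barcode seen in both.

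Most lymphatic cells lay far above the limit of the rule, and the few just above it had levels near those just below. The median number of lymphatic UMIs per cell was 20 in the library labelled SRSF2f/f and 26 in the library labelled SRSF2f/w, and 166 (78.7%) and 545 (83.5%) of the cells had at least 10. All 3 lymphatic genes were found together in 144 (68.2%) and 493 (75.5%) of the cells. Over both libraries, the 34 cells with exactly 3 lymphatic UMIs, just inside the limit, had 443 CPM of Flt1 and 36.7 of Flt4. The 91 endothelial cells with 2 lymphatic UMIs, just outside it, had 367 and 33.0. In the 711 cells with at least 10 the same genes gave 16.7 and 178. Flt1 encodes VEGFR1, a receptor of blood vessels, and in cells with 0 lymphatic UMIs it gave 346. Ccl21a, which is not in the rule, gave 310 in the 34 cells, 268 in the 91 and 7017 in the 711, against 9.49 in cells with 0 lymphatic UMIs. The label of lymphatic endothelium therefore holds for the cells with many lymphatic UMIs. The 34 cells at the limit were near the cells just below it in these genes, and their label rests mainly on the rule.

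**Figure D1:**
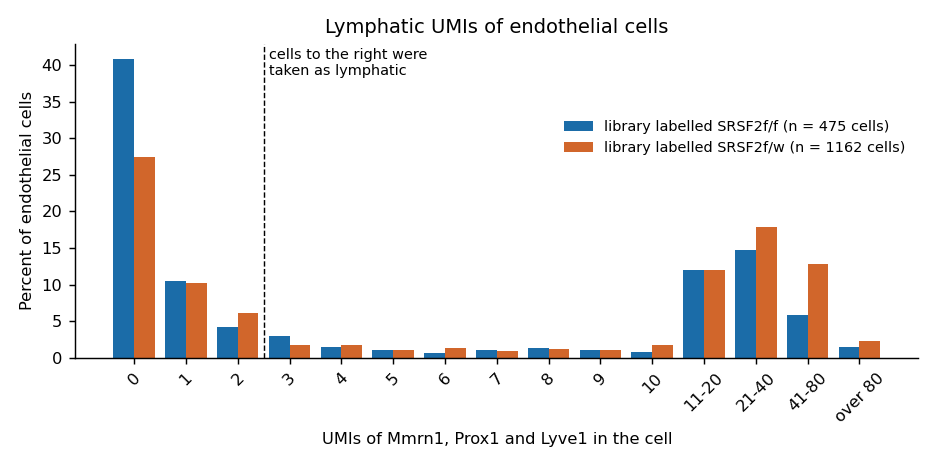
Percent of endothelial cells (vertical axis) by their UMIs of Mmrn1, Prox1 and Lyve1 (horizontal axis, single values up to 10 and wider bins beyond) for the 2 libraries, with a dashed line at the limit of 3 UMIs. One group of cells is at 0, and most cells past the limit have more than 10.

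The cells with 3 to 9 lymphatic UMIs held both blood endothelial and lymphatic genes as a group, and blood endothelial genes were low in cells with 10 or more, a split chosen after the values were seen. Flt1 in the library labelled SRSF2f/f was 409 CPM in endothelial cells with 0 lymphatic UMIs, 439 with 1 or 2, 435 with 3 to 9 and 4.18 with 10 or more. In the library labelled SRSF2f/w the same bands gave 312, 341, 295 and 19.9. Over both libraries, Flt1 was at 443 in the 34 cells with exactly 3 lymphatic UMIs and at 280 in the 119 cells with 4 to 9, of which 43.7% held a UMI of it. Cd34, a surface sialomucin of blood endothelium, went from 254 to 11.8 and from 228 to 16.3 between the outer bands, with 227 and 131 in the band of 3 to 9, and Esam, an adhesion molecule of endothelial junctions, from 199 to 3.13 and from 229 to 12.2. Ccl21a ran the other way, from 4.42 to 6707 and from 12.2 to 7096, with 2090 and 1887 in the band of 3 to 9, and Flt4 was at 81.3 and 74.5 there.

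**Figure D2:**
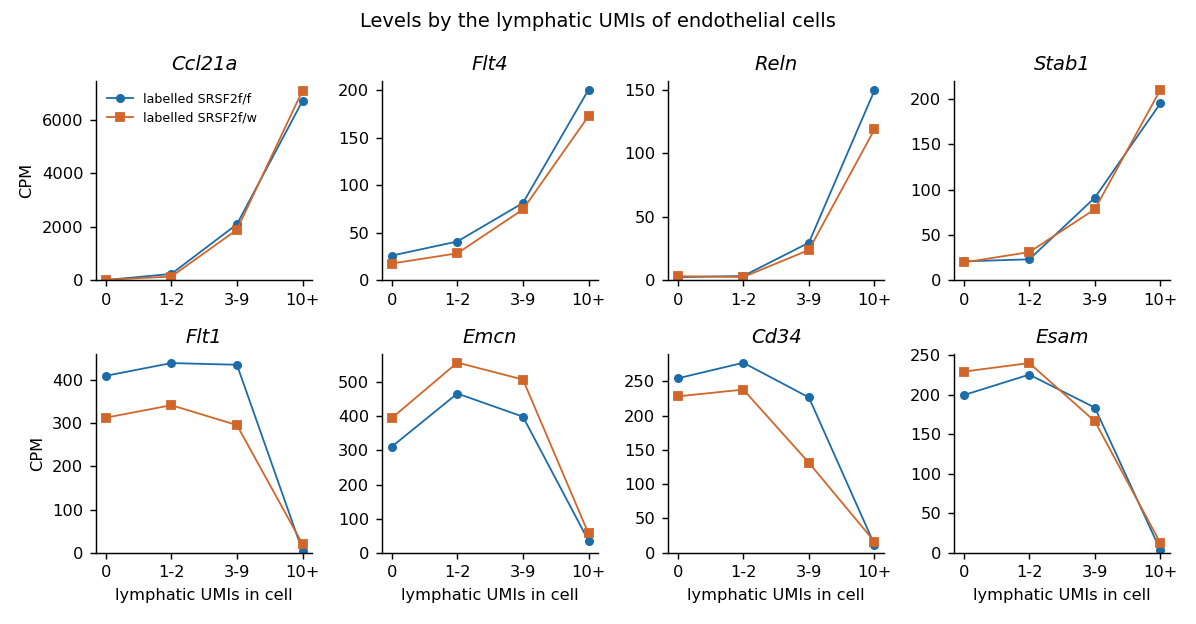
CPM (vertical axis, linear, a scale per gene) of 4 lymphatic genes (upper row) and 4 genes of blood endothelium (lower row) in endothelial cells with 0, 1 or 2, 3 to 9, and 10 or more lymphatic UMIs (horizontal axis), with a point per library and lines joining its points. Flt1 stays near its level in cells without lymphatic UMIs up to the band of 3 to 9 and is at 4.18 and 19.9 in the highest band.

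Of the genes that the rule did not use, the lymphatic markers Flt4, Ccl21a and Reln were at high levels in the selected cells. Endothelial cells with 0 lymphatic UMIs, 194 and 319 in number, served as the comparison. At a gene minimum of 100 UMIs over both groups of a library, 236 of 6619 genes (3.57%) were at least 2-fold higher in the lymphatic cells of the library labelled SRSF2f/f and 323 (4.88%) at least 2-fold lower. In the library labelled SRSF2f/w these were 375 of 9479 (3.96%) and 518 (5.46%). Of the 6615 genes tested in both, 164 (2.48%) were at least 2-fold higher in both libraries. That was 69.8% of the 235 of these genes that were higher in the first library and 78.1% of the 210 in the second. Another 245 (3.70%) were at least 2-fold lower in both, 76.1% of 322 and 87.2% of 281 lower genes among the same 6615. These counts describe groups that the rule itself set apart.

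Of the lymphatic lists of secreted proteins, receptors and transcription factors, the secreted proteins had the highest median ratio to endothelial cells without lymphatic UMIs. Ccl21a, the gene of the chemokine CCL21 (ENSMUSG00000094686, chr4:42772860-42773993 of GRCm38, minus strand), gave 5689 CPM in the lymphatic cells of the library labelled SRSF2f/f and 6112 in those of the library labelled SRSF2f/w. In endothelial cells without lymphatic UMIs it gave 4.42 and 12.2. Per cell, scaled to 10000 UMIs, its median was 64.4 and 68.2 and its highest value 244 and 297, so the level was spread over the population. With every cell thinned to 2000 UMIs, 89.6% and 91.0% of lymphatic cells held a Ccl21a UMI. The share in non-endothelial cells was 0.835% and 3.71%, at median depths before thinning of 10995 and 9562 UMIs against 14300 and 17470 in the lymphatic cells. The non-endothelial cells include 276 and 173 with at least 3 lymphatic UMIs that failed the endothelial condition, so this share is not a pure background rate. The mouse genome holds near-identical copies of Ccl21. Gm21541, 1 of them (chr4:41903610-41904743, plus strand), had 178 and 472 UMIs in lymphatic cells and 0 in the comparison cells. It shares 80.6% of its 31-base stretches with Ccl21a, so the division of reads between the copies is uncertain.

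Reln, which encodes the extracellular glycoprotein reelin (chr5:21884454-22344702, minus strand), gave 123 and 101 CPM against 2.38 and 3.10. Nts, the gene of the peptide neurotensin, gave 454 and 638 against 40.5 and 52.0, and Ptx3, a secreted pattern recognition protein, 135 and 136 against 19.0 and 17.7. Angpt2, the angiopoietin that lymphatic development needs, gave 96.4 and 117 against 20.4 and 23.5. Of the 8 secreted proteins listed outside the rule, 6 were at least 2-fold higher in both libraries and 0 at least 2-fold lower. Over all genes tested in both, these shares were 2.48% and 3.70%, so the 0 is near the background. The median log2 ratio of the list was 2.54 and 2.63, beside 0.01 and 0.0045 over all genes tested. Pdgfb, a ligand that recruits mural cells, was the lowest, at 98.5 and 93.4 against 133 and 127.

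The promoters of Ccl21a, Reln and the scavenger receptor gene Stab1 are shown as examples of genes whose transcripts set the lymphatic cells apart. The 250 bases before the RefSeq start (GRCm38.p6) are given in the 5′ to 3′ direction of the gene. Capitals mark the letters GGAAG or, for the other strand, CTTCC, which hold the core read by ETS factors, a family active in endothelium.
Ccl21a promoter, chr4:42773992-42774241, minus strand: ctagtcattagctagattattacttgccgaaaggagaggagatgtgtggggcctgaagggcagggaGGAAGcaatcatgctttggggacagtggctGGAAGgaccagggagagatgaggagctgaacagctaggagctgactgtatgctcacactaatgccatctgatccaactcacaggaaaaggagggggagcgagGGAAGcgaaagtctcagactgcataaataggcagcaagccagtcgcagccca
Reln promoter, chr5:22344706-22344955, minus strand: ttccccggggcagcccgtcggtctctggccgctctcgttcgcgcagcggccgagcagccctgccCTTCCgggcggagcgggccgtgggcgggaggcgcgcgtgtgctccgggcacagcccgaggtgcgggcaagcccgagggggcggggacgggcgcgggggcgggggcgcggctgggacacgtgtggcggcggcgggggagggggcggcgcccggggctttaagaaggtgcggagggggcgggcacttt
Stab1 promoter, chr14:31168642-31168891, minus strand: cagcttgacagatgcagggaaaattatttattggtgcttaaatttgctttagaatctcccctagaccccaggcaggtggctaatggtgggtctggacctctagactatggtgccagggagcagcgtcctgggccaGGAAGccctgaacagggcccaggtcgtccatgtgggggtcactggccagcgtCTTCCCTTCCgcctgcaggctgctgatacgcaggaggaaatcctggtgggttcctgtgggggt
The letters occurred 3 times in the Ccl21a window, 1 time in that of Reln and 3 times in that of Stab1. They occurred in 64.1% of the 32851 promoter windows of the same kind, so a match is common and is given only as a description.

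Receptors and surface proteins followed. Flt4, the VEGF-C receptor VEGFR3 (chr11:49609263-49652739, plus strand), gave 174 and 154 CPM against 25.8 and 17.5 in endothelial cells without lymphatic UMIs, a log2 ratio of 2.75 (2.41 to 3.12) and 3.14 (2.84 to 3.45). A Flt4 UMI was found in 83.9% and 85.8% of the lymphatic cells, in 23.7% and 21.003% of the endothelial cells without lymphatic UMIs and in 0.566% and 0.809% of the non-endothelial cells. With cells thinned to 2000 UMIs the lymphatic share was 25.6% and 25.7%, against 3.09% and 2.87% in endothelial cells without lymphatic UMIs and 0.130% and 0.223% in non-endothelial cells. Nrp2, its co-receptor, gave 601 and 542 against 169 and 206. Stab1, a scavenger receptor (chr14:31139013-31168641, minus strand), gave 172 and 185 against 20.7 and 19.5.
Mrc1, the mannose receptor shared by macrophages and lymphatic endothelium, gave 56.2 and 57.5 against 0.340 and 0.911, with a log2 ratio of 7.37 (4.87 to 12.7) over a single UMI in the comparison cells of the library labelled SRSF2f/f. Mrc1 is 1 of 8 listed macrophage markers, of which C1qa, Tyrobp, Cx3cr1 and Ptprc were at 0 in the lymphatic cells of that library and none was at 0 in those of the library labelled SRSF2f/w. At least 3 macrophage UMIs were found in 0 and 9 lymphatic cells. Thy1, a surface glycoprotein, gave 98.5 and 76.8 against 7.82 and 9.30, and Pdpn, the mucin podoplanin, 72.2 and 69.9 against 23.5 and 19.9. Of the 13 listed receptors and surface proteins tested in both libraries, 7 were at least 2-fold higher in both and 0 at least 2-fold lower in both, with medians of 1.62 and 1.40. Over all genes tested in both, 2.48% were higher and 3.70% lower. The sphingosine-1-phosphate receptor S1pr1 was lower, at 178 and 175 against 255 and 231. Ackr3, the decoy receptor for adrenomedullin and CXCL12, gave 3.80 and 5.15 against 18.0 and 17.5, but had too few UMIs in the library labelled SRSF2f/f to enter that count.

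Ligands of VEGFR3 and the proteins that process them were rare in lymphatic cells. Vegfc gave 4.34 and 6.89 CPM in lymphatic cells against 11.9 and 15.3 in endothelial cells without lymphatic UMIs, and 5.25 and 6.29 in the other cells. Vegfd, the second VEGFR3 ligand, gave 0.543 and 1.16 in lymphatic cells and 10.5 and 9.36 in non-endothelial cells. Adamts3, the protease that activates VEGF-C, gave 1.63 and 2.54 against 7.64 and 10.0 there, and Ccbe1, its cofactor, had 2 and 3 UMIs in all lymphatic cells. Kdr, the receptor VEGFR2 and a gene of the rule, gave 350 and 317.

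**Figure D3:**
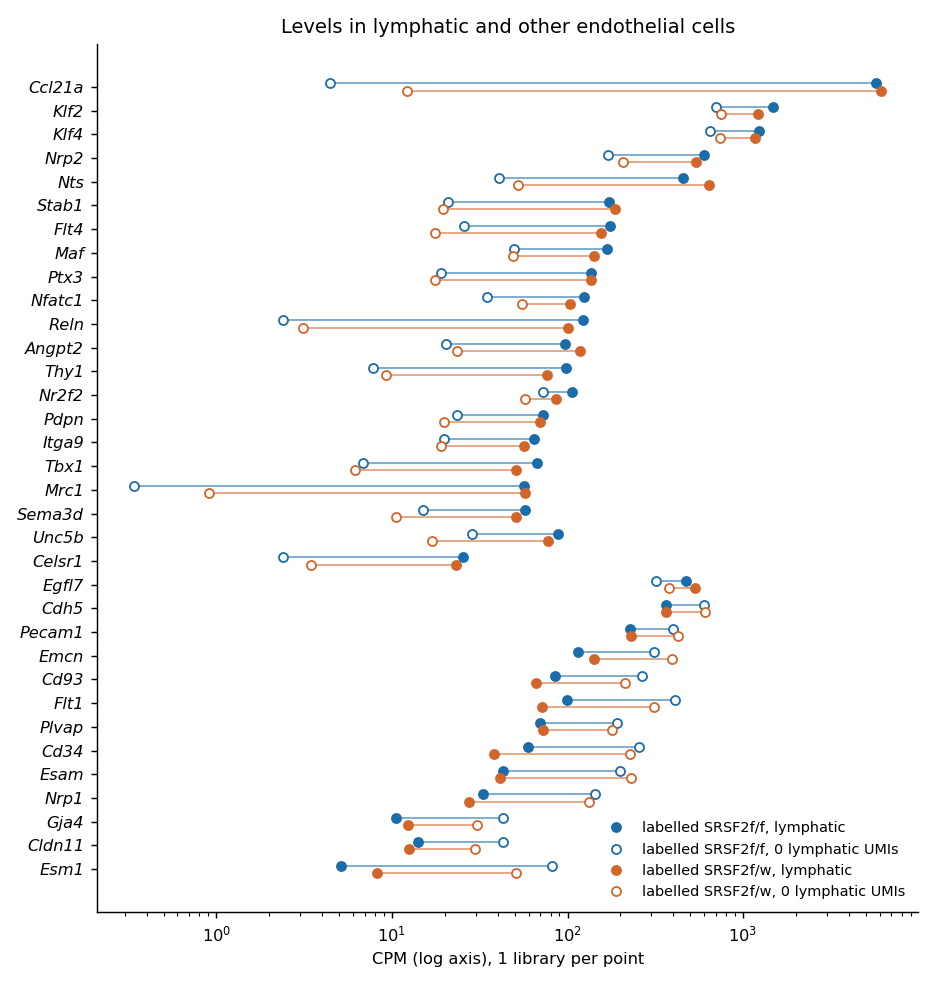
CPM (horizontal axis, log scale) of lymphatic and blood endothelial genes (vertical axis) in lymphatic cells (filled points) and in endothelial cells with 0 lymphatic UMIs (open points), with a line joining the 2 points of a library. Ccl21a is at 5689 and 6112 in lymphatic cells, and Flt1 is at 99.1 and 71.9 there against 409 and 312.

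Among the transcription factors, Tbx1 and Maf were well above their level in other endothelium. Prox1, a gene of the rule (chr1:190118035-190170714, minus strand), gave 535 and 462 CPM. Tbx1, a T-box factor needed for lymphatic growth, gave 66.8 and 51.0 against 6.80 and 6.20, and Maf gave 169 and 141 against 49.3 and 48.9. Of the 11 listed factors tested outside the rule, these 2 were at least 2-fold higher in both libraries and 0 at least 2-fold lower in both. The medians of the list were 0.55 and 0.58. Beside these counts, 2.48% of all genes tested in both were higher and 3.70% lower, so the 0 is near the background. Nfatc1, a valve regulator, gave 124 and 103 against 34.7 and 54.7. Klf2 and Klf4, which respond to flow, gave 1474 and 1212 against 703 and 749 and 1240 and 1162 against 648 and 738. Nr2f2, the venous factor COUP-TFII, gave 106 and 85.5 against 72.4 and 57.1, a log2 ratio of 0.55 (0.30 to 0.80) and 0.58 (0.40 to 0.77). Foxc2, the regulator of collecting vessels and valves, was rare, at 6.24 and 7.25 CPM.

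The valve list was mixed. Of 15 genes tested in both libraries, 3 were at least 2-fold higher in both and 3 at least 2-fold lower, beside 2.48% and 3.70% over all genes. Celsr1, a planar polarity cadherin, gave 25.5 and 23.2 against 2.38 and 3.46, Itga9, a fibronectin-binding integrin, 64.6 and 56.5 against 19.7 and 19.1, and Ephb4, an ephrin receptor of veins and lymphatics, 43.4 and 41.7 against 17.3 and 20.4. Cldn11, a claudin of valve cells, gave 14.1 and 12.5 against 42.8 and 29.5, and Gja4, the connexin 37 gene, 10.6 and 12.3 against 43.2 and 30.6. The lower level of Gja4 in the library labelled SRSF2f/w did not hold without cells that carried macrophage, muscle or neural UMIs, where the log2 ratio was 0.13.

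Genes of blood endothelium were lower in the lymphatic cells. Of 11 tested in both libraries, 10 were at least 2-fold lower in both, beside 3.70% over all genes, and the median log2 ratio of the list was -1.65 and -1.94. These levels pool cells near the limit of the rule with cells far above it. In the library labelled SRSF2f/f, 353 of the 365 Flt1 UMIs lay in the 45 cells with 3 to 9 lymphatic UMIs. With at least 10 lymphatic UMIs the log2 ratio was -6.61 and -3.97 for Flt1, in place of -2.05 and -2.12, and -7.87 and -3.59 for Esm1, in place of -3.98 and -2.62. Flt1 gave 99.1 and 71.9 CPM against 409 and 312, Nrp1, the VEGF-A co-receptor, 32.8 and 27.5 against 144 and 132, and Cd93 84.7 and 65.7 against 265 and 212. Esm1, a marker of tip cells, gave 5.16 and 8.26 against 81.6 and 50.7. Ptprb, the phosphatase VE-PTP, did not reach 2-fold, at 67.0 and 66.9 against 114 and 97.7. Among 8 arterial genes tested, Dll4, the Notch ligand of arteries and tip cells, gave 14.4 and 7.97 against 53.7 and 35.4, and 3 were at least 2-fold lower in both libraries. Unc5b, a netrin receptor, was the exception, at 88.8 and 77.8 against 28.6 and 17.0. Among 5 venous genes, Ephb4 was at least 2-fold higher and Aplnr, the apelin receptor, at least 2-fold lower in both. The pan-endothelial list had 0 of 16 at least 2-fold higher in both and 3 at least 2-fold lower, beside 2.48% and 3.70% over all genes, so the 0 is near the background. Cldn5, the endothelial claudin, gave 940 and 709 against 859 and 748, and Egfl7, an endothelial matrix protein, 475 and 530 against 320 and 377. Of 7 junction genes outside the rule, 0 were at least 2-fold higher and 2, Esam and Jam2, at least 2-fold lower in both libraries.

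Ranked over all genes by the interval bound nearest 0, the highest genes beyond those listed were Tc2n, Gdf15, Scn3a, Slc45a3, Sgk3, Fgl2 and Prkcz. Gdf15, a stress-induced cytokine, gave 271 and 347 CPM against 13.9 and 9.66, in 55.9% and 64.3% of the lymphatic cells, and 10% of the cells held 46.9% and 49.4% of its UMIs. Sgk3, a kinase of endosomes, gave 226 and 201 against 13.9 and 16.4, in 83.9% and 90.2%. Scn3a, a voltage-gated sodium channel, gave 56.2 and 56.7 against 2.72 and 2.55. The lowest genes included Ptgds, a prostaglandin D synthase, at 0.543 and 1.74 against 116 and 189, Aldh1a2, which makes retinoic acid, at 1.36 and 1.23 against 47.3 and 16.0, and Ramp3, a partner of the adrenomedullin receptor, at 2.17 and 5.65 against 34.0 and 39.7. Ptgds was found in 6.70% and 9.09% of the comparison cells, Aldh1a2 in 11.3% and 7.21% and Ramp3 in 24.2% and 23.2%. Markers of other cell types moved with these genes. The mesenchyme markers summed to 759.95 and 585 CPM in lymphatic cells against 2255 and 2081 in the comparison cells. Of them 5 of 5, and of the erythroid markers tested 4 of 5, were at least 2-fold lower in both libraries, beside 3.70% over all genes. At least 3 macrophage, muscle or neural UMIs were found in 7.58% and 9.95% of the lymphatic cells and in 14.9% and 17.2% of the comparison cells. Without such cells in either group, 258 of 6029 genes (4.28%) were at least 2-fold higher and 276 (4.58%) lower in the library labelled SRSF2f/f. In the library labelled SRSF2f/w these were 395 of 8841 (4.47%) and 471 (5.33%). The part of mesenchyme and erythroid UMIs in the ratios was not tested. Ramp2, a relative of Ramp3, was at 393 and 391 against 347 and 308. In the list of angiopoietin and adrenomedullin pathways that holds these 2 genes, 1 of 7, Angpt2, was at least 2-fold higher in both libraries. Ramp3 was the 1 gene at least 2-fold lower in both, beside 2.48% higher and 3.70% lower over all genes. Tie1 and Tek, the angiopoietin receptors, gave 135 and 125 against 105 and 90.6 and 31.8 and 27.9 against 46.9 and 52.5. The T cell genes Cd3g and Trbc2 and the granzyme Gzma were also among the lowest, but their UMIs in the comparison cells came from few cells, 3 and 16 cells for Cd3g.

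The immune traffic genes beside Ccl21a were at mixed levels in the lymphatic cells. Il7, the cytokine that sustains lymphocytes, had 18 and 70 UMIs in lymphatic cells and 0 in the comparison cells, and 0.236 and 0.237 CPM in the other cells. Cxcl12, the CXCR4 ligand, was lower, at 6.79 and 13.1 CPM against 72.1 and 64.5. Icam1, an adhesion molecule for leukocytes, gave 187 and 216 against 125 and 165. Of 5 genes of the list tested in both, 1, Ccl21a, was at least 2-fold higher in both and 1, Cxcl12, at least 2-fold lower. Over all genes tested in both, 2.48% were higher and 3.70% lower in both.

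Of the genes of early paraxial lineage, Myf5, Pax3 and Pax7 had few UMIs and Meox1 more. Myf5 had 11 and 2 UMIs in all lymphatic cells, Pax3 0 and 5, and Pax7 20 and 15. Meox1, a paraxial mesoderm factor and the most abundant of the 5 lineage genes, gave 23.9 and 22.0 CPM against 13.6 and 11.5, a log2 ratio of 0.81 (0.26 to 1.39) and 0.94 (0.54 to 1.36). The later muscle genes Myog and Actc1 were found in 16.6% and 35.5% of the lymphatic cells of the library labelled SRSF2f/f and in 2.14% and 4.44% of those of the library labelled SRSF2f/w. In endothelial cells without lymphatic UMIs these shares were 14.9% and 35.1%, and 1.57% and 3.45%. In non-endothelial cells they were 21.7% and 41.5%, and 2.18% and 4.61%, so they are not particular to lymphatic cells. Of the lymphatic cells, 10 and 5 held at least 3 muscle UMIs. The Y-linked gene Ddx3y gave 86.6 and 97.2 CPM and Xist 0 and 2 UMIs.

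No Lyve1 UMI was counted in 61 of the 211 lymphatic cells and in 127 of the 653. Lyve1 is a gene of the rule, and 0 UMIs do not show that a cell lacks it, so these cells passed through Mmrn1 and Prox1 and include cells near the limit. As a group they had 272 and 243 CPM of Flt1, and the cells with a Lyve1 UMI 4.20 and 26.2, a contrast that the rule partly sets. Those with at least 10 UMIs of Mmrn1 and Prox1, 26 and 51 cells in a subset chosen after the values were seen, had 5691 and 6827 CPM of Ccl21a, 177 and 148 of Flt4 and 15.3 and 57.2 of Flt1. Cells with Lyve1 at the same limit had 6992 and 7269 of Ccl21a and 210 and 182 of Flt4, so both genes lay within 1.5 times of each other. Flt1 was at 1.59 and 16.7 in them and thus lower than in the cells without a Lyve1 UMI. In the library labelled SRSF2f/f this rests on 3 Flt1 UMIs in 102 cells with Lyve1 and 9 in the 26 cells without. In the library labelled SRSF2f/w the Flt1 UMIs were 145 and 52.

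Cells with at least 3 lymphatic UMIs that failed the endothelial condition had another profile. There were 276 in the library labelled SRSF2f/f and 173 in the library labelled SRSF2f/w. Prox1 gave 232 and 277 CPM in them and Ccl21a 142 and 346, above its level in endothelial cells without lymphatic UMIs and below that in the lymphatic cells. Mrc1 gave 35.4 and 101, but Flt4 was at 1.92 and 6.26, and 268 and 155 of them reached the limit without Lyve1. At least 3 macrophage UMIs were found in 8 and 14.

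About 1 in 3 lymphatic cells was cycling by the measure used. With each cell thinned to 2000 UMIs, 33.2% (26.9 to 39.97) of lymphatic cells in the library labelled SRSF2f/f and 29.7% (26.2 to 33.4) in the library labelled SRSF2f/w held a UMI of Mki67 or Top2a, genes of dividing cells. The log2 ratio was -0.16 (-0.48 to 0.17), so a difference was not detectable at this depth. No lymphatic cell was left out by the thinning, and without it the shares were 66.8% and 62.02%. Endothelial cells without lymphatic UMIs gave 30.9% and 22.6%, with a log2 ratio of -0.45 (-0.88 to -0.03). Non-endothelial cells gave 28.5% and 16.3%, with a log2 ratio of -0.81 (-0.89 to -0.73). In the library labelled SRSF2f/w, 5 of these endothelial cells and 257 of the non-endothelial cells had too few UMIs to enter. In the library labelled SRSF2f/f these numbers were 0 and 172. A wider measure, at least 2 UMIs of 12 cell cycle genes, gave 41.2% and 40.6% in lymphatic cells.

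**Figure D4:**
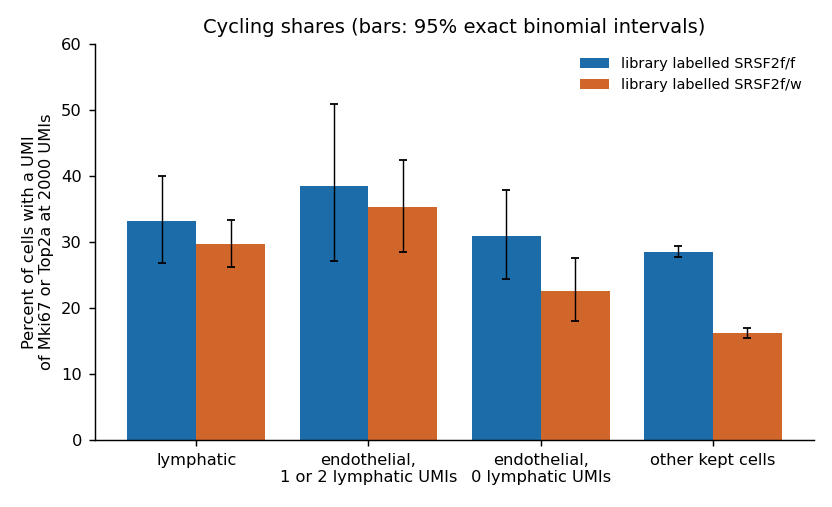
Percent of cells with a UMI of Mki67 or Top2a after thinning to 2000 UMIs (vertical axis) in lymphatic cells, endothelial cells with 1 or 2 and with 0 lymphatic UMIs, and the other kept cells of the 2 libraries, with exact 95% intervals. The intervals of the lymphatic cells overlap at 33.2% and 29.7%, as do those of each of the other endothelial groups. Those of the other kept cells lie apart at 28.5% and 16.3%, from 11497 and 8523 cells against 211 and 653 lymphatic cells.

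Cycling lymphatic cells carried Ccl21a and Flt4, lymphatic genes outside the rule. Prox1 and Lyve1 are genes of the rule, so their presence in these cells was set by it, and their levels are given only as a description. The 70 cycling cells of the library labelled SRSF2f/f had 4883 CPM of Ccl21a against 6291 in the 141 others, 498 of Prox1 against 563 and 177 of Flt4 against 172. In the library labelled SRSF2f/w, 194 cycling cells had 5856 against 6244, 446 against 469 and 179 against 141. Lyve1 was at 416 against 684 and at 590 against 674. The cycling cells also had more UMIs, with medians of 18466 and 20216 against 11456 and 15433.

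Between the libraries, the listed lymphatic transcription factors, receptors and secreted proteins stayed within 2-fold, as did most genes. Of 9106 genes with at least 100 UMIs over both libraries, 110 (1.21%) were at least 2-fold higher in the lymphatic cells of the library labelled SRSF2f/w and 46 (0.505%) at least 2-fold lower. Of the 12 transcription factors, 13 receptors and 8 secreted proteins tested outside the rule, 0 were past 2-fold either way, a count near the background of 1.21% and 0.505% and thus no result about these lists. The medians of these lists were -0.10, -0.10 and -0.04, beside -0.03 over all genes. The interval lay above 0 for 2 of the 12 transcription factors and below 0 for 6, above for 1 of the 13 receptors and below for 4, and above for 3 of the 8 secreted proteins and below for 1. In other endothelial lists, Adm of the adrenomedullin pathway and Vwf, the von Willebrand factor gene of blood endothelium, were past 2-fold. Vwf had 15 and 171 UMIs, in 4.27% and 5.97% of the lymphatic cells, and a log2 ratio of 1.61 (0.84 to 2.47), which ranged from 1.20 to 3.74 over the alternatives. The log2 ratio was 0.10 (0.08 to 0.13) for Ccl21a, -0.18 (-0.30 to -0.05) for Flt4, -0.29 (-0.44 to -0.13) for Reln and 0.49 (0.41 to 0.57) for Nts. Among the rule genes it was -0.21 for Prox1, -0.15 for Mmrn1 and 0.18 for Lyve1. Intervals apart from 0 were common with so many UMIs: over all genes 2416 (26.5%) lay away from 0, of which 1320 (14.5%) were below.

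The listed cell cycle genes and SR splicing factors stayed within 2-fold. The interval lay below 0 for 7 of the 12 cell cycle genes, beside 14.5% over all genes, with Top2a at 303 and 212 CPM and a log2 ratio of -0.52 (-0.62 to -0.41), and above 0 for none. Their median was -0.20 in lymphatic cells. In non-endothelial cells Top2a gave -1.03. Of the 10 SR splicing factors, the family of Srsf2, 3 had an interval below 0 and 1 above, beside the same 14.5% below 0 and 26.5% away from 0 over all genes. Srsf1 gave 92.3 and 71.5 CPM, a log2 ratio of -0.37 (-0.55 to -0.19), and Srsf10 200 and 241, a ratio of 0.27 (0.15 to 0.38). Srsf3 was at 459 and 461. Of the 8 p53 targets and apoptosis genes, 4 had an interval above 0 and none below, beside 26.5% away from 0 in either direction over all genes, and Cdkn1a, the cell cycle inhibitor p21, gave 179 and 288, a ratio of 0.68 (0.57 to 0.81).

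Of the 10 listed early response and heat shock genes, Hspa1a and Hspa1b were at least 2-fold higher in the library labelled SRSF2f/w, beside 1.21% of all genes. The interval of the ratio lay above 0 for 5 of the 10 and below 0 for 3, beside 26.5% away from 0 over all genes, and the median log2 ratio was 0.07. Hspa1a, an inducible HSP70, gave 83.3 and 278 CPM, a log2 ratio of 1.74 (1.57 to 1.91), with a UMI in 31.3% and 59.3% of the lymphatic cells. Hspa1b gave 57.3 and 150, a ratio of 1.39 (1.19 to 1.60). Hspb1, a small heat shock gene, and Hmox1, the haem oxygenase gene, were outside the list and were added after their values were seen. Hspb1 gave 162 and 357, a ratio of 1.14 against 0.55 in endothelial cells without lymphatic UMIs and 0.46 in non-endothelial cells. Hmox1 gave 75.2 and 169, a ratio of 1.17 against 1.72 and 1.67. The same ratio for Hspa1a was 0.74 in endothelial cells without lymphatic UMIs and 0.68 in non-endothelial cells. The immediate early genes did not move together, with Fos at 0.16 (0.10 to 0.22) and Egr1 at -0.45 (-0.53 to -0.36).

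The highest ratios of listed genes belonged to markers of other cell types. Cma1, a mast cell chymase, had 2 UMIs in the lymphatic cells of the library labelled SRSF2f/f and 1526 in those of the library labelled SRSF2f/w, a log2 ratio of 7.67 (5.82 to 10.7). It was found in 0.948% and 24.5% of them, and at 2000 UMIs in 0.948% and 4.44% of lymphatic and 0.574% and 6.38% of non-endothelial cells. Cpa3, Tpsb2 and Hdc, also mast cell genes, had ratios of 6.58, 7.11 and 4.48. Without the 16 and 65 lymphatic cells that held at least 3 macrophage, muscle or neural UMIs, the ratio was 4.40 for Cma1, 2.81 for Cpa3, 3.69 for Tpsb2 and 1.73 for Hdc, and 52 genes in place of 110 were at least 2-fold higher. The 3 mast cell markers summed to 34.2 and 230 CPM in lymphatic cells, and 2 of 3 were at least 2-fold higher, beside 1.21% of all genes. None was at 0, and the most abundant was Kit in the first library and Cma1 in the second. At least 3 mast cell UMIs were found in 13 (6.16%) and 85 (13.0%) of the lymphatic cells. In the library labelled SRSF2f/f, Kit gave 32.8 of the 34.2 CPM, and Cma1 and Cpa3 had 2 and 3 UMIs. The 13 cells there thus rest mostly on Kit.

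The embryonic globins Hba-x and Hbb-y had ratios of 6.68 and 5.51. Hba-x rested on 10 cells of the library labelled SRSF2f/w, 1 of which held 61.9% of its UMIs. The 6 erythroid markers summed to 6112 and 4986 CPM, none at 0, with Hbb-bs the most abundant in both libraries. Of the 6, 2 were at least 2-fold higher, beside 1.21% of all genes. Hbb-bs, an adult-type globin gene, gave 3152 and 1978 in lymphatic cells, but 1 cell of the library labelled SRSF2f/f held 37.2% of its UMIs there, and it was found in 49.8% and 61.9% of the cells. Its level was higher in the library labelled SRSF2f/w in endothelial cells without lymphatic UMIs, at 7207 and 7946, and in non-endothelial cells, at 3546 and 6221. Muscle genes went the other way: Actc1, the cardiac actin of embryonic muscle, gave 122 and 20.4, and Myog, the myogenin gene, 46.4 and 6.16. The 6 muscle markers summed to 216 and 54.4 in lymphatic cells, none was at 0, and the most abundant were Actc1 and Mylpf. Of the 3 tested, 2 were at least 2-fold lower, beside 0.505% of all genes. In non-endothelial cells Actc1 gave 439 and 42.0 and Myog 144 and 15.6. Over all genes, the transcripts Gm26885 and Gm10827, of no listed cell type, were lower still, with log2 ratios of -3.35 and -3.05 against -2.91 for Myog, and were found in 3.79% and 6.64% of the lymphatic cells of the library labelled SRSF2f/f.
Cartilage markers summed to 548 and 1026, with Col2a1 the most abundant and none at 0, and 0 of 3 were at least 2-fold higher. Beside this count and those of the markers below, 1.21% of all genes were at least 2-fold higher and 0.505% lower. A count of 0 is near that background. Neural markers summed to 26.9 and 67.7, with Stmn2 the most abundant and none at 0, and both tested were at least 2-fold higher. Macrophage markers summed to 58.9 and 81.2, with Mrc1 the most abundant, 4 of 8 were at 0 in the library labelled SRSF2f/f and none in the library labelled SRSF2f/w, and 1 of 2 tested was at least 2-fold higher. The 2 epidermal markers summed to 26.1 and 71.9, with Krt14 the most abundant, and 1 was at least 2-fold higher. Mesenchyme markers summed to 759.95 and 585, with Col1a2 the most abundant, and 0 of 5 were past 2-fold. Mural markers summed to 14.4 and 26.4, with Cspg4 the most abundant, and the 1 tested was at least 2-fold higher, with a log2 ratio of 1.07. Megakaryocyte markers summed to 14.9 and 13.0, with Pf4, and liver sinusoid markers to 6.79 and 5.94, with Stab2. Of the mural, megakaryocyte and liver sinusoid markers, Oit3 was at 0 in the library labelled SRSF2f/f and Ppbp in the library labelled SRSF2f/w. Beyond leaving out cells with macrophage, muscle or neural UMIs, the part of these other cell types in the ratios was not tested. Of the 110 higher genes, 59 of the 108 tested in non-endothelial cells were at least 2-fold higher there too. Of the 46 lower genes, 14 of 45 were at least 2-fold lower there. In endothelial cells without lymphatic UMIs, 25 of 72 and 7 of 22 went the same way. Opposite by 2-fold were 4 and 3 genes in the non-endothelial cells and 1 and 0 in these endothelial cells. The share of all genes past 2-fold in either kind of cell is not given, so these counts have no background.

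**Figure D5:**
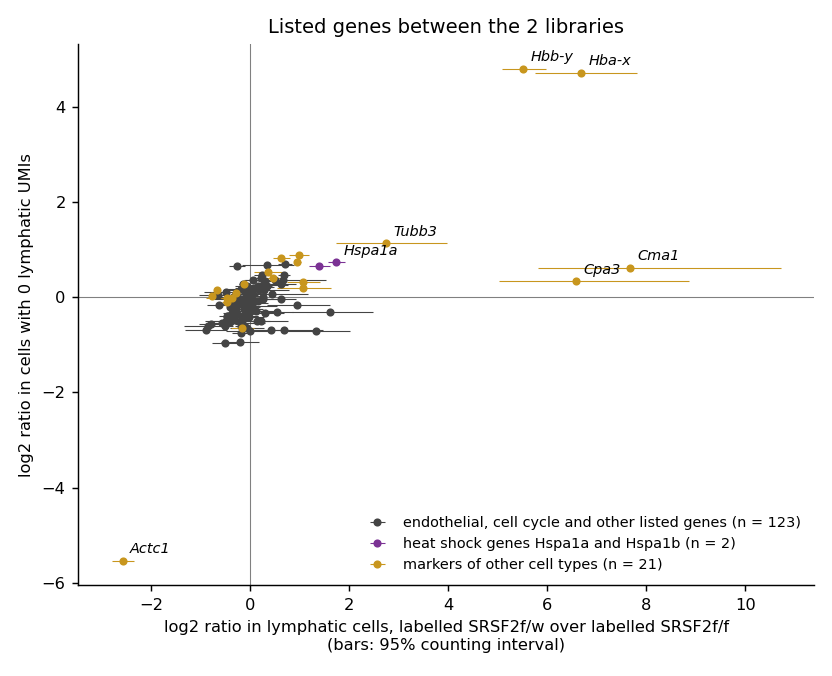
Log2 ratio of the library labelled SRSF2f/w over the library labelled SRSF2f/f in lymphatic cells (horizontal axis, bars for the 95% counting interval) and in endothelial cells with 0 lymphatic UMIs (vertical axis) for 146 listed genes. Of 123 endothelial, cell cycle and other genes, 121 lie within 2-fold in lymphatic cells, while 8 of 21 markers of other cell types lie past it. The other 2 points are heat shock genes, and Hspa1a and Hspa1b lie past 2-fold at 1.74 and 1.39.

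Some of the genes past 2-fold were detected in many lymphatic cells. Detection in 20% or more of the lymphatic cells of the higher library, a limit set after the values were seen, held for 28 of the 110 higher genes and 11 of the 46 lower genes. A single cell held at least 50% of the UMIs of 9 and 9. The share of all tested genes that met either limit is not given, so these counts have no background. Among the widespread higher genes were the cartilage genes Matn1, Snorc, Col9a3, Col9a2, Mia and Col11a2, with ratios of 1.53, 1.33, 1.18, 1.17, 1.16 and 1.05, the mast cell gene Cma1 and the neural gene Stmn2. Other widespread higher genes were Fabp4, a lipid chaperone of capillary endothelium, at 99.6 and 304 CPM with a ratio of 1.61 (1.46 to 1.77), Lgals3, the galectin-3 gene, at 22.8 and 80.9, Ccl2, a monocyte chemokine, at 34.5 and 74.9, and Cwc22, a splicing factor, at 14.4 and 56.1. The ratio of Fabp4 was 0.58 in endothelial cells without lymphatic UMIs and -1.38 in non-endothelial cells. That of Cwc22 was 2.03 and 1.69. Adm, the adrenomedullin gene, gave 6.24 and 15.7 in lymphatic cells with a ratio of 1.33 (0.71 to 2.02), against -0.70 in endothelial cells without lymphatic UMIs. Among the lower genes Ibsp, a bone sialoprotein, had 95.9% of its UMIs in 1 cell.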

How the data were processed

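tdTomato-positive cells of 2 libraries, 1 per group, were analysed from the deposited matrix of UMI counts, which the authors made with Cell Ranger 5.0.0 (file header) on mm10, with reads down-sampled between libraries. The submitters' processing notes name Cell Ranger 3.1.0, STAR and Seurat 3.1.1. The deposited run summaries give sequencing saturation in percent and cell numbers as counts, and these cell numbers tied each barcode suffix to a library. Saturation was 39.5% and 45.9%.

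Cells were kept at 1000 or more UMIs and at most 10% mitochondrial UMIs, and no doublet caller was run. UMIs were summed over cells of a kind and scaled to 1000000 UMIs of the same cells (CPM). Levels have exact Poisson intervals. Shares, and the division of a gene's UMIs between the groups behind each ratio, have Clopper-Pearson intervals. Genes needed 100 UMIs over the groups compared, and a call was a 2-fold ratio. With 1 library per group there was no test. Gene names came with the matrix, and 99.8% of its 32285 identifiers were found in the GRCm38 annotation. Promoters are those of RefSeq and were found for the 3 genes shown. Python 3.11.15, NumPy 2.4.6 and SciPy 1.17.1 were used, and the ratio was checked on simulated data.

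Genes were named if they were on 1 of 30 lists, among the 12 highest or 12 lowest against endothelial cells without lymphatic UMIs, or among the 10 highest or 10 lowest between libraries, ranked by the interval bound nearest 0. The members and lists were chosen with earlier results of these data known. Widely detected genes named between libraries, and Mettl23 and Mfsd11, were added after their values were seen. Other limits on UMIs, mitochondria, gene counts, denominators and mixed cells were tried.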

Additional observations from a re-analysis of the deposited data

Results flagged for a closer look

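Genes that were at least 2-fold higher in lymphatic cells than in endothelial cells without lymphatic UMIs in 1 library and at least 2-fold lower in the other were picked out, and the difference between the libraries was not tested. Spp1, the osteopontin gene, had a log2 ratio of -2.24 in the library labelled SRSF2f/f and 1.41 in the library labelled SRSF2f/w. In the library labelled SRSF2f/f, 1 of the 28 comparison cells with a UMI held 55.4% of its 177 UMIs. Gm26885 had ratios of 6.82 and -1.80. It rested on 8 and 22 lymphatic cells, 1 of which held 45.1% and 59.6% of the UMIs.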

How the results depend on the processing

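Of 86 alternative values of the main results, 75 stayed within the interval or within 1.5 times the count, and 11 moved. The log2 ratio of the lymphatic share of kept cells was 1.92, and 2.22 at a mitochondrial limit of 5% and 2.17 with cells thinned to 2000 UMIs before the rule. Counts of genes past 2-fold changed with the gene minimum, which by construction changes how many genes are tested. At 50 UMIs, 528 genes were lower against endothelial cells without lymphatic UMIs in the library labelled SRSF2f/f (323 at 100), and between libraries 225 were higher and 114 lower (110 and 46). At 200 UMIs, 141 were higher (236) and 169 lower in the library labelled SRSF2f/f and 310 lower (518) in the library labelled SRSF2f/w, and between libraries 59 were higher and 14 lower. Without cells holding 3 or more macrophage, muscle or neural UMIs, 52 genes were higher between libraries, and the cause was not tested.

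Of 128 named gene results, 125 kept their sign. Of their alternative values 1047 stayed within the interval, 193 left it and 6 changed sign. Ccl21a went from 10.3 and 8.97 to 6.11 and 6.45 against all endothelial cells under 3 lymphatic UMIs. With at least 10 lymphatic UMIs in the library labelled SRSF2f/f, Esam went from -2.22 to -5.99 and Cd34 from -2.10 to -4.43. Gja4 against endothelial cells without lymphatic UMIs in the library labelled SRSF2f/w went from -1.31 to 0.13 without such mixed cells. Spock2 between libraries went from -2.01 to 0.98 with at least 5 lymphatic UMIs, 1.53 with at least 10 and 0.63 without its highest cell, and Krt15 from -1.99 to 2.41 with at least 10 and 2.21 without its highest cell. The cause was not tested beyond these counts, and the last 2 settings were chosen after seeing the data. No paired analysis was possible because each group was 1 library. Low levels, such as those of Ccbe1 and Foxc2, rest on few UMIs.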
